A study of Mus musculus with 6 samples.

Results

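The 10 genes described here, Eif2ak3, Ern1, Atf6, Atf4, Ddit3, Xbp1, Trib3, Asns, Hspa5 and Hsp90b1, carry the unfolded protein response and the integrated stress response. They were chosen by name, as sensors, transcription factors, target genes and chaperones of these pathways, and are 10 of the 49315 mouse genes counted in each library. The counts come from bulk RNA sequencing of bone marrow cells sorted as LT-HSCs, ST-HSCs and MPPs, the long-term and short-term hematopoietic stem cells and the multipotent progenitors, from WT mice and from mice lacking ING4, a subunit of a chromatin-modifying complex. There were 6 libraries, 1 for each population of each genotype. The marrow of several mice was pooled and lineage-depleted, and the populations were then sorted from it separately. No tissue-specific deletion is named for the ING4-/- mice, so other tissues than blood may lack the protein too; WT mice were C57BL/6, no treatment is named for either genotype, and the labels give no age. Since a population had 1 library per genotype, the 3 populations stood in for replicates in the comparison of ING4-/- with WT, and the spread behind each p-value is the spread between populations. Whether the 3 libraries of a genotype came from 1 pool of mice is not stated, so that spread may hold none between animals.

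When unfolded protein accumulates in the endoplasmic reticulum, the membrane sensors PERK (encoded by Eif2ak3), IRE1 (Ern1) and ATF6 signal to the nucleus. PERK and other kinases phosphorylate the translation factor eIF2, which slows general translation while the mRNA of Atf4 is translated more, and ATF4 then turns on genes of amino acid supply and, with CHOP (Ddit3), of cell death. IRE1 splices the mRNA of Xbp1, and ATF6 is cut from the membrane to become a transcription factor; both raise chaperones such as BiP (Hspa5). Hematopoietic stem cells keep protein synthesis low and are known to be sensitive to protein folding stress. Kinase activity, the translation of Atf4, the splicing of Xbp1 and the cleavage of ATF6 cannot be read from counts per gene, so the values below are mRNA levels only.

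These pathways act through short promoter sequences, and 3 of the 10 genes carried them upstream of their start site as RefSeq places it on GRCm38.p6. The ER stress response element was searched on both strands as CCAAT followed after any 9 bases by CCACG, the ATF4 element of amino acid response genes as TGATGNAA and the XBP1 element as TGACGTG, from 250 bases before to 50 bases after each start. The sequences are shown because elements of these forms are known to be read by ATF6, XBP1 and ATF4. A match of letters does not show that a factor binds there. Capitals mark the letters of the search, and positions are counted back from the start site.
Hspa5, ER stress response element, 65 to 47 bases before the start, chr2:34772020-34772048 (+): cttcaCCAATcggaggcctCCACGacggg
Hspa5, XBP1 element, 157 to 151 bases before the start, chr2:34771922-34771950 (+): gggcgtagcaaTGACGTGagttgcggagg
Hsp90b1, ER stress response element, 212 to 194 bases before the start, chr10:86705633-86705661 (-): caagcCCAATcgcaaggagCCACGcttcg
Hsp90b1, the same element on the other strand, 107 to 89 bases before the start, chr10:86705528-86705556 (-): gagtgCGTGGtgaggcacgATTGGtgagt
Asns, ATF4 element, 23 to 16 bases before the start, chr6:7693214-7693243 (-): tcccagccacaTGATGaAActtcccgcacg
Among 32817 mouse promoters of this length, the ER stress response element was found in 0.119%, the ATF4 element in 3.97% and the XBP1 element in 2.01%. Trib3 held the ATF4 element too, on the other strand and after its start site. A promoter was found for 9 of the 10 genes, all but Atf6, and the 5 other members with a promoter held none of the 3 sequences. The annotation of the deposited counts begins Hspa5 and Asns further upstream than RefSeq, so that the ER stress response element of Hspa5 and the Asns element lie within the first exons it gives.

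The targeted gene, Ing4, had 247, 162 and 247 counts in the WT libraries and 0, 24 and 76 in the ING4-/- libraries, each in the order LT-HSC, ST-HSC, MPP; the ING4-/- libraries were sequenced more deeply, and background as described next would give 119, 121 and 96.3 of the WT counts. WT libraries totalled 7839326 to 9363442 counts and ING4-/- libraries 35596876 to 39192588, yet 36082 to 41763 genes had a count in WT and 14680 to 16188 in ING4-/-. The WT libraries held a background, averaging 18.1 to 22.7 counts per kb of exon on 1429 olfactory and vomeronasal receptor genes. In ING4-/- it was at most 0.0853 counts per kb. Single genes departed from this average: Gp1bb had 0, 3 and 0 WT counts, where it would give 42.1, 42.8 and 34.0. What background would give for a gene is therefore an estimate. Depth, background and genotype move together and cannot be told apart in these libraries. The median log2 fold change of all 31001 genes tested was -6.85, and it moved with the scaling, to -7.17 with DESeq2 size factors and to -6.35 with upper-quartile scaling. Folds are therefore read against the setting they come from. Defining markers of stem and progenitor cells (10 genes, among them Kit, Ly6a and Cd34) summed to 2330 to 3376 CPM in WT and 3088 to 4845 CPM in ING4-/-, and none was at 0 in all ING4-/- libraries.

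All 10 genes were tested, since each passed the filter on low counts. Of these, 1, Asns, was called between the genotypes, where a call asked that the adjusted p lie under 0.05 and that the log2 fold change exceed 1 in size (edgeR quasi-likelihood test, Benjamini-Hochberg adjustment over all genes), and it was higher in ING4-/-. Over all genes tested 64.6% were called, split into 7.98% higher and 56.7% lower, so 1 call among 10 genes is close to the share called higher and far below the share called lower. The median log2 fold change of the 10 genes was 0.13. When only the 9673 genes reaching 10 counts in all 6 libraries were fitted, where background weighs less, 18% were called, split into 8.3% higher and 9.68% lower, and the call among the 10 genes was then Atf6, as lower. In that fit the median log2 fold change of the 10 genes was -0.37, with 4 positive, against 0.020 over all genes fitted. With background subtracted it was 3.8e-05 against -0.93. Levels are given as TMM-normalised CPM, which corrects for library size, and levels of different genes are compared only per kb of exon. Where 3 values are given for a genotype they are in the order LT-HSC, ST-HSC, MPP.

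The sensors lay, with Trib3, at the low end of the 10 genes per kb in WT, and none was called. Eif2ak3, encoding PERK (chr6:70844515-70905245), had 22, 91 and 64 counts in WT, fewer than the 135, 137 and 109 counts that the background would give over its 6026 bases of exon. In ING4-/- it had 218, 31 and 34 counts, which is 6.97, 0.980 and 1.00 CPM. The WT counts are therefore no measure of PERK mRNA, and the fitted log2 fold change of -1.04 (SE 0.980, adjusted p = 0.392) cannot be separated from the background. Within ING4-/-, where background was near 0, the LT-HSC library held 6.56 times the level of the ST-HSC library and 6.43 times that of the MPP library.

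Ern1, encoding IRE1 (chr11:106394650-106487852), had 63.0, 43.3 and 61.5 CPM in WT and 113, 7.08 and 41.5 CPM in ING4-/-. The ING4-/- libraries thus lay on both sides of WT, with LT-HSCs above and the others below, and the fitted log2 fold change was -0.055 (SE 0.836, adjusted p = 0.961). Background would account for 183, 186 and 148 of the 598, 402 and 627 WT counts. The ING4-/- LT-HSC level was 15.7 times that of ING4-/- ST-HSCs, where WT LT-HSCs and ST-HSCs differed 1.45-fold.

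Atf6, encoding the membrane-bound transcription factor (chr1:170704674-170867771), was the only one of the 10 genes with every ING4-/- library below every WT library. Its level was 72.5, 58.8 and 50.8 CPM in WT and 18.3, 37.4 and 5.78 CPM in ING4-/-. The lowest value, in ING4-/- MPPs, came from 196 counts, and the log2 ratio to WT was -1.98, -0.65 and -3.12. The fitted log2 fold change of -1.57 (SE 0.649, adjusted p = 0.0691) was not called. It was called as lower with DESeq2 (-1.94, adjusted p = 0.0178) and with population as a block (-1.93, adjusted p = 0.0422), and also with a minimum of 10 counts per library (-2.09, adjusted p = 0.0445), while removing the trend on gene length left -0.90 (adjusted p = 0.366). At 9231 bases of exon it is the longest of the 10 genes, and background would give 207, 210 and 167 of its 688, 546 and 518 WT counts. Over all genes 62.9% had every ING4-/- library below every WT library, and 13.1% among those at a minimum of 10 counts per library.

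**Figure D1:**
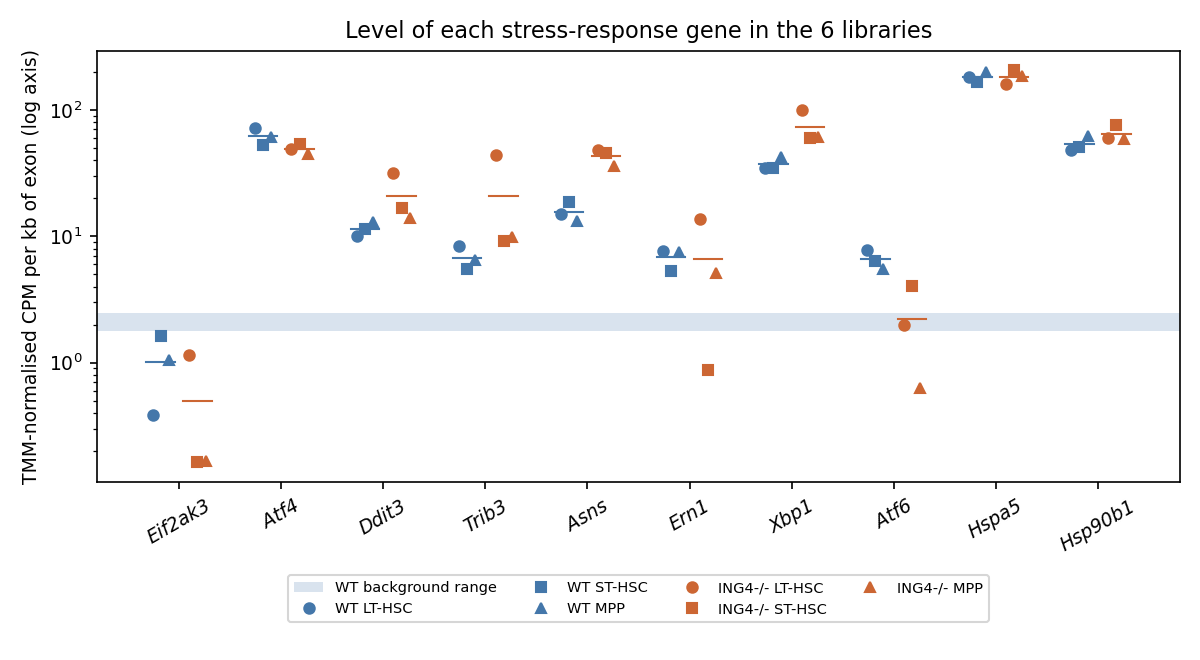
Level of the 10 genes in each library, as TMM-normalised CPM per kb of exon on a log axis, with WT in blue, ING4-/- in orange, a marker shape for each population and a line at the mean of the 3 libraries. The blue band is the range of the WT background, 1.78 to 2.45 CPM per kb, and WT Eif2ak3 lies below it; Asns, Xbp1, Trib3 and Ddit3 lie higher in every ING4-/- library than in any WT library.

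Among the transcription factors, Atf4 was the most abundant per kb in WT and showed no call in the main comparison. Atf4 (chr15:80255184-80257540), the effector of the integrated stress response, stood at 124, 91.5 and 105 CPM in WT and at 84.1, 93.1 and 76.8 CPM in ING4-/-. The ranges of the genotypes overlapped, because the ING4-/- ST-HSC library lay above the WT ST-HSC library, and the fitted log2 fold change was -0.34 (SE 0.221, adjusted p = 0.223). With background subtracted it was called as lower (-1.10, adjusted p = 0.00397), likewise with the length trend removed (-1.24, adjusted p = 0.0121), and upper-quartile scaling turned its sign (0.26, adjusted p = 0.362). Where background was subtracted 44.3% of the genes tested were called, and 38.7% were called as lower. With the length trend removed 13.3% were called, 9.09% as higher and 4.26% as lower.

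Ddit3, encoding CHOP (chr10:127290774-127296288), had 17.2, 19.5 and 22.3 CPM in WT and 54.3, 28.9 and 23.8 CPM in ING4-/-. Every ING4-/- library lay above every WT library, but the MPP libraries differed by only 0.095 on the log2 scale and the LT-HSC libraries by 1.66. The fitted log2 fold change of 0.86 (SE 0.457, adjusted p = 0.141) was not called. Ddit3 was called as higher with upper-quartile scaling (1.46, adjusted p = 0.0236), and with the length trend removed it stood at -0.010 (adjusted p = 0.991). Of its exonic bases 4.73% overlap genes on the opposite strand, and since no strand setting is given, reads there cannot be assigned with certainty.

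Xbp1 (chr11:5520659-5525893), the factor of the IRE1 arm, had 113, 112 and 138 CPM in WT and 323, 194 and 200.0 CPM in ING4-/-. Every ING4-/- library exceeded every WT library, most in LT-HSCs, with log2 ratios of 1.51, 0.80 and 0.53 by population. The fitted log2 fold change was 0.98 (SE 0.257), with an adjusted p of 0.0112, so that Xbp1 passed the p threshold and fell just short of the fold asked for a call. Its difference depended on the setting: it was 0.64 (adjusted p = 0.0649) with DESeq2 size factors, 0.49 (0.194) with a minimum of 10 counts per library and 0.27 (0.466) with background subtracted. Xbp1 was called as higher with upper-quartile scaling (1.58, adjusted p = 0.00129), with no filter on low counts (1.07, adjusted p = 0.0108), and without the ING4-/- ST-HSC (1.13) or MPP (1.12) library. Per kb, Xbp1 ranked 4 of 10 in WT, at 37.3 CPM per kb ± 4.62 (SD, n = 3), and 2 of 10 in ING4-/-, at 73.6 CPM per kb ± 22.3 (SD, n = 3), where its range overlapped that of Hsp90b1.

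Of the target genes, Asns was called, and its ING4-/- level was higher in all 3 populations by a like amount. Asns (chr6:7675169-7693254), encoding asparagine synthetase and a well known gene of the amino acid response, had 392, 477 and 367 counts in WT and 4102, 3947 and 3350 counts in ING4-/-, or 41.3, 51.4 and 36.0 CPM against 131, 125 and 98.8 CPM. The lowest ING4-/- library was above the highest WT library, and the log2 ratios by population were 1.66, 1.28 and 1.45. The fitted log2 fold change was 1.46 (SE 0.255, adjusted p = 0.00158), or 2.76-fold. The call held without each library in turn (1.22 to 1.60) and with population as a block (1.47, adjusted p = 0.0369). It was lost with a minimum of 10 counts per library (0.95, adjusted p = 0.0527), with background subtracted (0.85, adjusted p = 0.0516) and with the length trend removed (0.79, adjusted p = 0.110), in each case with the same sign. Its promoter carries the ATF4 element printed above.

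Trib3 (chr2:152337422-152344032), a pseudokinase gene induced by ATF4 and CHOP, had 17.7, 11.6 and 13.7 CPM in WT and 93.6, 19.4 and 20.9 CPM in ING4-/-. All ING4-/- libraries were above all WT libraries, with the LT-HSC library far above the others. The fitted log2 fold change of 1.64 (SE 0.707, adjusted p = 0.0788) was not called, and it was 0.51 (adjusted p = 0.348) without the ING4-/- LT-HSC library and 2.02 (adjusted p = 0.0358) without the ING4-/- ST-HSC library. Ddit3, Xbp1, Asns and Trib3 were thus the 4 of 10 genes with every ING4-/- library above every WT library. Over all genes tested this held for 12%, and for 35.9% of those at a minimum of 10 counts per library, which all 10 genes had, so that 4 of 10 is close to the latter share.

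The chaperones were, with Atf4, the most abundant of these mRNAs in WT, and neither was called. Hspa5, encoding BiP (chr2:34771970-34777547), had 767, 701 and 850 CPM in WT and 674, 870 and 778 CPM in ING4-/-, and the ranges overlapped. The fitted log2 fold change was 0.0024 (SE 0.155, adjusted p = 0.991). With background subtracted it was -0.80 (SE 0.126, adjusted p = 0.00216), short of the fold asked for a call, and with a minimum of 10 counts per library -0.50 (adjusted p = 0.0421). With upper-quartile scaling it was 0.60 (adjusted p = 0.0109), so that the direction at this p threshold followed the setting.

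Hsp90b1, encoding GRP94 (chr10:86690209-86705509), had 196, 206 and 253 CPM in WT and 240, 308 and 238 CPM in ING4-/-. The MPP libraries of both genotypes were close and the ranges overlapped, with a fitted log2 fold change of 0.27 (SE 0.196, adjusted p = 0.275). Other annotated genes overlap 5.38% of its exonic bases on the same strand and 10.3% on the opposite strand. Both chaperone genes hold the ER stress response element printed above.

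**Figure D2:**
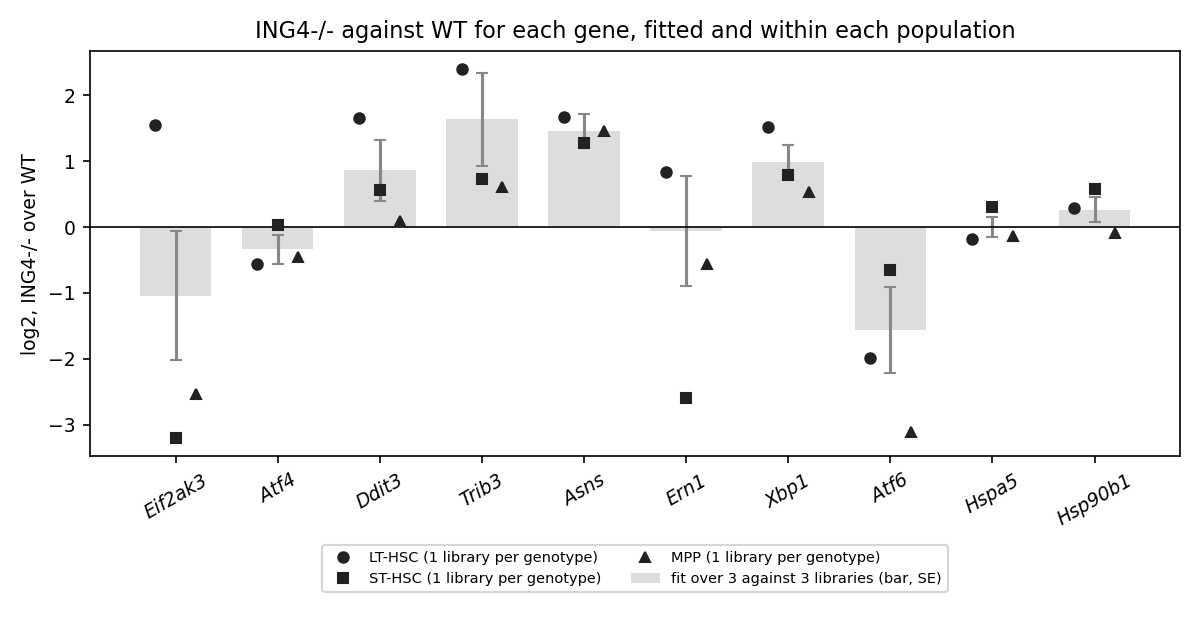
Log2 of ING4-/- over WT for the 10 genes, with the fit over 3 against 3 libraries as a grey bar with its SE and the ratio within each population as a black marker, 1 library per genotype. Asns lies between 1.28 and 1.66 in every population, whereas Ern1 runs from 0.84 in LT-HSCs to -2.60 in ST-HSCs.

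Since the scaling moved all folds together, ratios of one gene to another within a library were added after seeing the data; they need no normalization. Asns had 0.333, 0.561 and 0.341 counts per count of Atf4 in WT and 1.56, 1.34 and 1.29 in ING4-/-, a difference of 1.80 on the log2 scale (pooled SD 0.318, n = 3), or 1.96 with background subtracted. Xbp1 had 0.910, 1.22 and 1.31 counts per count of Atf4 in WT and 3.84, 2.09 and 2.61 in ING4-/-. Asns and Xbp1 were thus higher relative to Atf4 in every ING4-/- library than in any WT library, whatever the scaling.

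Measured against the chaperone Hspa5, Xbp1 stood at 0.147, 0.160 and 0.163 in WT and at 0.478, 0.224 and 0.257 in ING4-/-. Asns was at 0.0538, 0.0732 and 0.0424 per count of Hspa5 in WT and at 0.194, 0.143 and 0.127 in ING4-/-. The ratio of the chaperones to each other was slightly lower in each ING4-/- library than in any WT library, with 3.92, 3.41 and 3.36 counts of Hspa5 per count of Hsp90b1 in WT and 2.80, 2.83 and 3.26 in ING4-/-. Atf4 per count of Hspa5 overlapped between the genotypes. Hspa5, with log2 ratios of -0.19, 0.31 and -0.13 by population, also lay below the median gene in each population. With 3 libraries against 3, an exact two-sided permutation test cannot give a p below 0.1, so no test is given for these ratios.

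**Figure D3:**
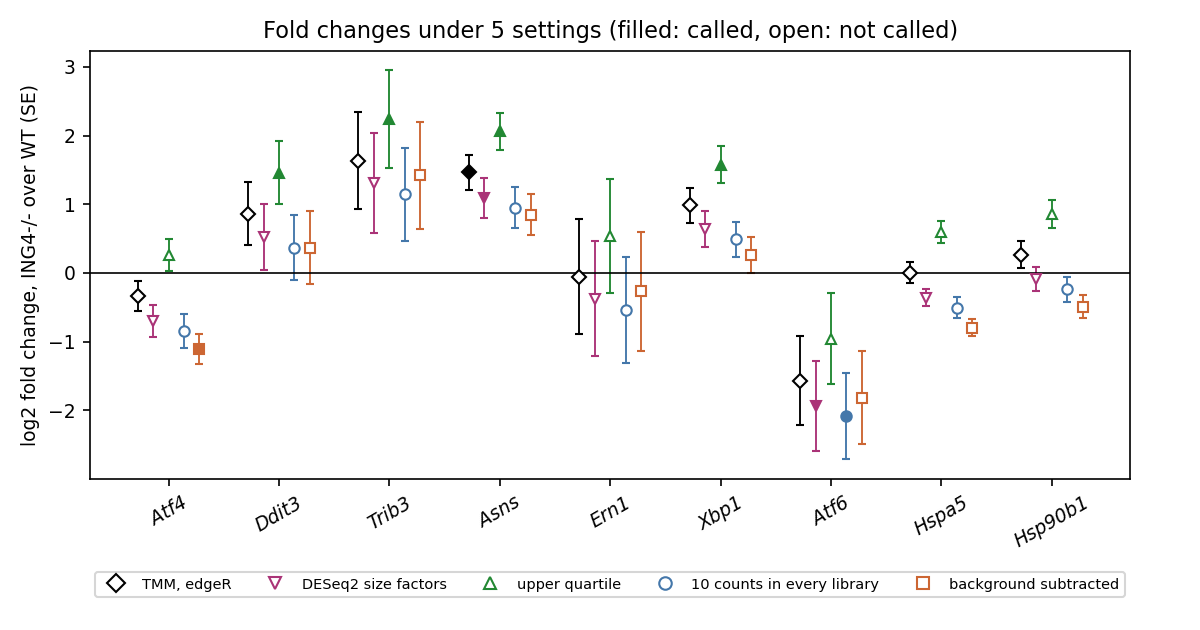
Log2 fold change of ING4-/- over WT with its SE for 9 genes under 5 settings, with filled markers where the gene was called; Eif2ak3 is left out because its WT counts lie below the background. The points of each gene shift together between settings: Hspa5 runs from -0.80 with background subtracted to 0.60 with upper-quartile scaling, and Asns from 0.85 to 2.06 without changing sign.

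In order of level per kb, Hspa5 led in both genotypes, at 183 CPM per kb ± 17.6 (SD, n = 3) in WT and 183 CPM per kb ± 23.1 (SD, n = 3) in ING4-/-. In WT it was followed by Atf4 at 62.1 and Hsp90b1 at 54.1 CPM per kb, whose ranges overlapped, then by Xbp1, by Asns at 15.7 and Ddit3 at 11.5 CPM per kb. Ern1, Trib3 and Atf6, at 6.84, 6.75 and 6.57 CPM per kb, did not differ beyond their ranges, and Eif2ak3 came last. In ING4-/- Xbp1 and Hsp90b1 followed Hspa5, and then came Atf4 at 49.1 and Asns at 43.2 CPM per kb with overlapping ranges; in WT the range of Asns lay far below that of Atf4. The ING4-/- ranges of Asns, Trib3 and Ddit3 overlapped in turn, and so did those of Ern1, Atf6 and Eif2ak3.

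Between populations no member was called. With genotype as a term, 0 of 31001 genes (0%) were called between MPPs and LT-HSCs by edgeR, and 561 (1.81%) had an unadjusted p under 0.05, none of them a member; DESeq2 called none of the 10 genes either. The lowest unadjusted p among them was 0.144, for Trib3, with a log2 difference of MPPs minus LT-HSCs of -1.35 (SE 0.785). Differences for the other members ran from -1.39 (SE 2.22) for Eif2ak3 to 0.19 (SE 0.236) for Hsp90b1. For Trib3, Ern1, Atf6, Ddit3 and Eif2ak3 a difference of 1 on the log2 scale was less than 2 SEs, so a change of that size was not detectable.

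The ING4-/- LT-HSC library stood apart for several members. Trib3 was 4.82 and 4.46 times as high there as in ING4-/- ST-HSCs and MPPs, Ddit3 1.88 and 2.28 times and Xbp1 1.66 and 1.61 times. In WT the LT-HSC level of Trib3 was 1.52 and 1.29 times that of ST-HSCs and MPPs, and those of Ddit3 and Xbp1 were at most 1.01 times. In ING4-/- 9 of the 10 genes were higher in LT-HSCs than in MPPs, with a median log2 difference of 0.94 against -0.053 over 9673 genes. In WT it was 5 of 10, with medians of -0.057 and -0.20. Against ST-HSCs it was 6 of 10 in ING4-/- (median 0.40, and -0.080 over all genes) and 6 of 10 in WT (0.071 and -0.019), and Atf4, Atf6, Hspa5 and Hsp90b1 were lower in ING4-/- LT-HSCs. Most wider lists did not follow when ING4-/- LT-HSCs were compared with MPPs. Higher in LT-HSCs were 7 of 18 targets of ATF4 and CHOP (median -0.47) and 9 of 21 chaperones (median -0.21). The same held for 12 of 29 IRE1 and XBP1 genes (-0.23), 2 of 8 ATF6 genes (-0.33) and 7 of 18 degradation genes (-0.23). The lists of eIF2 and its regulators (11 of 17, 0.26) and of ATF4 and its partners (5 of 8, 0.38) did follow. These are values of single libraries with no test. A list of 12 dissociation stress genes, among them Fos, Jun and Atf3, was also highest in LT-HSCs in ING4-/-, summing to 8516, 3601 and 4384 CPM, against 6573, 4952 and 8497 CPM in WT; its part in the LT-HSC values was not tested.

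The wider pathway was described with 7 lists of known genes, 142 of which were found and 139 tested. Of these, 40 were called as higher in ING4-/- and 8 as lower, where 7.98% and 56.7% of all genes tested were, with a median log2 fold change of 0.83 against -6.85. With a minimum of 10 counts per library, 8 were called higher and 5 lower of 119, where 8.3% and 9.68% of all 9673 genes were, with a median of 0.37 against 0.020. With background subtracted it was 9 higher and 6 lower of 129, where 5.61% of all genes were called as higher and 38.7% as lower. Most calls as higher were therefore lost under these settings, while the median of the lists stayed above that of all genes.

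Among kinases of eIF2, eIF2 itself and its regulators, 5 of 17 were called higher and 1 lower, with a median of 0.90. The balance turned to 0 higher and 2 lower of 17 with a minimum of 10 counts per library, and to 1 higher and 2 lower with background subtracted. The 3 highest were Eif2b1 (log2 fold change 1.40) and Eif2b5 (1.32), which encode subunits of the exchange factor eIF2B, and Eif2s1 (1.33), which encodes the subunit of eIF2 that the kinases phosphorylate. The gene called lower was Ppp1r15a, encoding the stress-induced GADD34 that directs phosphatase to eIF2, with 812, 408 and 520 CPM in WT and 345, 126 and 158 CPM in ING4-/- (-1.47, SE 0.440, adjusted p = 0.0204). Of 10 genes for ATF4 and its partners only Batf was called, as higher (1.28), and the median was 0.76.

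Of 30 tested genes known as targets of ATF4 and CHOP, 7 were called higher and 4 lower, with a median of 0.36. It was 1 higher and 1 lower of 18 with a minimum of 10 counts per library, and 0 higher and 2 lower of 25 with background subtracted. The highest apart from Asns were Slc7a5 (2.42), an amino acid transporter gene whose WT counts of 88, 81 and 112 were close to the background of 83.1, 84.3 and 67.1, and Shmt2 (1.44) and Psat1 (1.43), of the serine and glycine pathway. Phgdh (1.37), Psph (1.30) and Pck2 (1.20), chosen after their values were seen, make up the 7 with Asns. Of those called lower, Aldh1l2, Cth and Pmaip1 were at 0 in all ING4-/- libraries, and Ddit4 had at most 67 counts there.

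In the IRE1 and XBP1 list 14 of 30 were called higher and none lower, with a median of 0.97. The highest were Sec61b (2.02) and Sec61g (1.81), subunits of the translocon, and Ostc (1.96), a subunit of the oligosaccharyltransferase. With a minimum of 10 counts per library 5 of 29 were called higher, with a median of 0.49. Of the chaperone and folding enzyme list, which holds Hspa5 and Hsp90b1, 9 of 21 were called higher and none lower, led by Cnpy2 (1.91), Ppib (1.74) and P4hb (1.45), the last 2 encoding a prolyl isomerase and a disulfide isomerase. There 2 of 21 were called with a minimum of 10 counts per library. Hspa5 and Hsp90b1 lay below the median of this list, 1.01.

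For ER-associated degradation, 4 of 20 were called higher and none lower, with a median of 0.82, led by Derl2 (1.15), Selenos (1.11) and Herpud1 (1.07). No gene of it was called with a minimum of 10 counts per library (0 of 18) or with background subtracted (0 of 19). In the list of ATF6 and its processing none of 11 was called higher and 3 were called lower, where 56.7% of all genes were, with a median of 0.040. Creb3l3 and Creb3l4 had at most 1 count in any ING4-/- library. Creb3l2 (-1.47), encoding a membrane-bound factor related to ATF6, had 451, 343 and 389 counts in WT and 345, 596 and 485 in the deeper ING4-/- libraries, and background would give 163, 166 and 132 of the WT counts. The list was also the one with the lowest median with a minimum of 10 counts per library, at -0.35, when 2 of 8 were called as lower and 9.68% of all genes were. With background subtracted 1 was called higher and 1 lower of 9, and with the length trend removed 1 higher and 0 lower of 8.

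**Figure D4:**
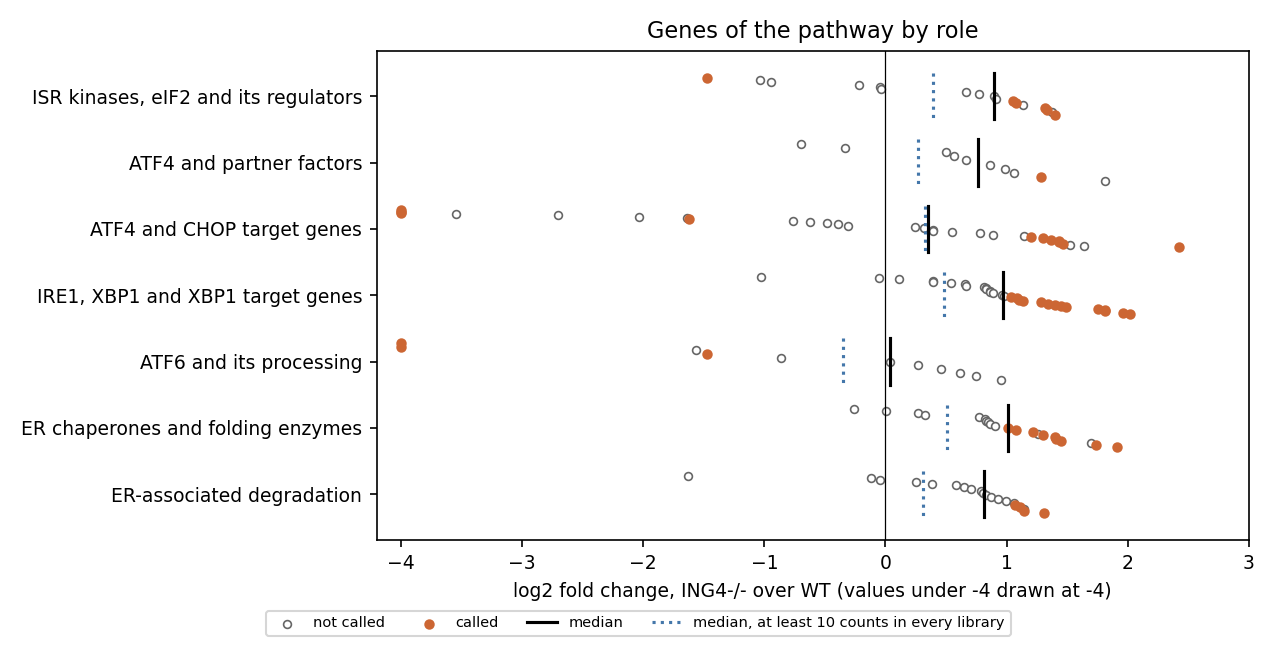
Log2 fold change of ING4-/- over WT for the tested genes of 7 lists, with called genes filled, the median as a black line and the median among genes at a minimum of 10 counts per library as a dotted blue line. Calls among the IRE1, chaperone and degradation lists lie to the right, those of the ATF6 list to the left, and dotted medians lie left of the black ones.

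Markers of other blood cells were measured beside these genes, since plasma cells express Xbp1 and chaperones strongly and since in bulk samples fewer cells of a type and less RNA per cell cannot be told apart. The 10 plasma cell markers summed to 61.7 to 64.8 CPM in WT and 35.5 to 157 CPM in ING4-/-, with 1 called higher (Fkbp11) and 2 lower. Less background the WT sum was 24.4 to 33.5 CPM, below every ING4-/- library. The defining markers Jchain, Mzb1, Irf4 and Igkc were at 0 in every ING4-/- library, but Igkc was at 0 in WT too and the WT counts of Irf4 (46, 54 and 39) lay under the background of 106, 107 and 85.3. Those of Jchain (63, 28 and 26 against 56.4, 57.2 and 45.6) exceeded it in LT-HSCs only. Those of Mzb1 (0, 17 and 33 against 20.3, 20.6 and 16.4) did so in MPPs only. Ighm had 0, 307 and 2215 counts in ING4-/- and Sdc1 50, 897 and 849, so that single markers of the list differed in direction. The 6 B cell markers summed to 94.7 to 114 CPM in WT (48.9 to 59.3 less background) and 64.6 to 112 CPM in ING4-/-, with 1 called higher and 5 lower. The ING4-/- sum was all Cd79b, the 5 others being at 0. Of those 5, Pax5 (58, 35 and 78 counts against 198, 201 and 160) and Cd79a (29, 11 and 17 against 32.6, 33.1 and 26.4) lay under the background in WT. The 7 T and NK cell markers summed to 80.9 to 158 CPM in WT (47.3 to 127 less background) and 61.5 to 308 CPM in ING4-/-, with 3 called lower. Granulocyte and monocyte markers (12 genes) summed to 440 to 702 CPM in WT and 1196 to 1430 CPM in ING4-/-, with 3 called higher (Prtn3, S100a8 and Lyz2) and 2 lower. The latter, Ly6g and Csf1r, were at 0 in ING4-/- and near or under the background in WT (Csf1r 78, 76 and 92 counts against 109, 111 and 88.4). Erythroid markers (8 genes) summed to 28.4 to 52.1 CPM in WT and 108 to 217 CPM in ING4-/-, with 4 called higher and 1 lower, and megakaryocyte markers (6 genes) to 258 to 399 and 281 to 1154 CPM, with 2 called higher. The part of granulocyte, erythroid and megakaryocyte RNA in the higher levels of Asns and the folding enzymes was not tested; marrow was lineage-depleted, and the panel for the sort held antibodies to CD11b, Gr-1, Ter119, B220 and CD3e, which mark mature cells.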

How the data were processed

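RNA from 6 sorted bone marrow libraries was analysed, LT-HSCs, ST-HSCs and MPPs of each genotype. The authors deposited raw counts of reads per gene, without normalization, with each gene's exons and exonic length. A sequencing company made and sequenced the libraries; the submitters' processing notes name the build mm10, and the aligner, counting program and strand setting are not given in the sources used here. Symbols and positions came from the GENCODE annotation of GRCm38 (49056 of 49315 identifiers found), promoters from RefSeq (GRCm38.p6).

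The members and the gene lists were chosen with earlier results of these data known. Counts were fitted in edgeR 4.0.16 (R 4.3.3) on all genes passing filterByExpr by genotype, with TMM factors, the quasi-likelihood F test and Benjamini-Hochberg adjustment over all genes tested. SEs were taken as the size of the log2 fold change over the root of F. Ratios within a population used log2 CPM with a prior count of 2 and have no test. MPPs and LT-HSCs were compared with genotype as a term; no degrees of freedom were left to test whether populations differ in their response to genotype. The genes named from the lists were the 3 highest and 3 lowest called genes of each list whose ratio had 1 sign in the 3 populations. Of 144 symbols written 142 were matched; Gcn1 was not, and Ero1a is another name of the listed Ero1l.

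Expected background is the library's counts per kb on receptor genes times the gene's exonic length; it makes up 22.6% to 33.4% of WT counts and at most 0.0280% of ING4-/- counts. A count of 0 allows up to 3 counts, or 0.294 to 0.323 CPM in WT and 0.0884 to 0.0959 CPM in ING4-/-, for counting error only. Deviations from the genotype means were shared by libraries of a population (r = 0.141, 0.108 and 0.120 across 9673 genes for LT-HSCs, ST-HSCs and MPPs; genes are not independent replicates), so the populations pair the libraries, and population as a block was an alternative. No pair of libraries within a genotype was a duplicate (the lowest chi-square over its degrees of freedom was 27.0), and pairs across genotypes were not compared. The other alternatives were DESeq2 1.42.0 and its size factors, upper-quartile scaling, other filters, thinning to 7839326 counts, removal of background or of a loess trend on length (span 0.5), and leaving out libraries. Ratios of genes within a library were added after seeing the data. The fits were tested on simulated data. Python 3.11.15 with pandas 2.3.3 and numpy 2.4.6 handled the tables.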

Additional observations from a re-analysis of the deposited data

Results flagged for a closer look

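For 5 of the 10 genes the ING4-/- to WT ratio had opposite signs in different populations. The difference between populations was not tested, since each population had 1 library per genotype, and groups of 3 libraries were too small to examine for outlying samples. On the log2 scale the ratio of Eif2ak3 was 1.55, -3.20 and -2.54 in the order LT-HSC, ST-HSC, MPP, with all WT counts below the background. The ratio of Ern1 was 0.84, -2.60 and -0.57 in the same order, and the ING4-/- ST-HSC library, with 224 counts, gave the low value. For Atf4 it was -0.56, 0.025 and -0.46, for Hspa5 -0.19, 0.31 and -0.13, and for Hsp90b1 0.30, 0.58 and -0.085. In each of these last 3 genes the ST-HSC ratio was the highest. Over all genes tested, the ratio kept 1 direction in the 3 populations for 81%, and among the 10 genes for 5, Ddit3, Trib3, Xbp1, Asns and Atf6.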

How the results depend on the processing

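The count of members called, 1 in the main comparison, was 2 with DESeq2 size factors, DESeq2, no filter on low counts, background subtracted, thinning, no minimum fold and without both LT-HSC libraries, 3 without both ST-HSC libraries, 4 with upper-quartile scaling and 1 to 4 leaving out 1 library (4 without the ING4-/- ST-HSC library, 3 without the ING4-/- MPP library, 2 without the ING4-/- LT-HSC library). With population as a replicate block it was 2, Asns and Atf6; the block changed no other member's call. Pathway genes called higher, 40, became 18 with DESeq2 size factors, DESeq2 or protein-coding genes only, 83 with upper-quartile scaling, 8 with at least 10 counts in every library, 17 with the length trend removed, 9 with background subtracted, 22 without both ST-HSC libraries and 28 to 49 leaving out 1 library; those called lower, 8, became 5 with upper-quartile scaling or the count minimum, 3 after removal of the length trend and 5 to 11 leaving out 1 library. Asns, Trib3, Xbp1 and Atf6 kept their sign under every alternative run. Signs turned for Atf4 (0.26, upper quartile), Ddit3 (-0.010, length trend), Eif2ak3 (8.85, adjusted p = 0.0176, edgeR, background subtracted; a call, but one made by setting WT to 0) and Ern1 (0.54 upper quartile, 0.031 no filter, 0.44 length trend, 0.32 and 0.014 without both ST-HSC or MPP libraries, -1.18 to 0.49 leaving out 1 library, positive without the WT LT-HSC, ING4-/- ST-HSC or ING4-/- MPP library, 0.059, 0.49 and 0.12). Hspa5, at 0.0024, turned to -0.36 with DESeq2 and with its size factors, -0.50 with the count minimum, -0.34 with protein-coding genes, -0.31 with the length trend removed, -0.80 with background subtracted, -0.21 when thinned, -0.0012 with the block, -0.15 and -0.10 without both ST-HSC or MPP libraries, and -0.11, -0.065, -0.061 and -0.040 leaving out 1 library. Hsp90b1 turned to -0.089 with DESeq2 and with its size factors, -0.24, -0.078, -0.084 and -0.49 with the count minimum, protein-coding genes, length trend removal and background subtraction. Between MPPs and LT-HSCs, signs turned when 1 library was left out, for Ddit3 (-1.21 to 0.26), Xbp1 (-0.76 to 0.22), Ern1 (-1.98 to 0.56), Hsp90b1 (-0.12 to 0.44) and Eif2ak3 (-3.08 to 1.61), with no call. The cause of these changes was not tested. Eif2ak3 was called lower without the ING4-/- LT-HSC library (-2.59, adjusted p = 0.0205, edgeR).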

Other observations

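In the ING4-/- libraries, which were sequenced more deeply, 5 pathway genes with counts in every WT library had none, Aldh1l2, Cth, Pmaip1, Creb3l4 and Srp54a, the last with 1, 4 and 6 WT counts and with near-identical copies in the genome. Aldh1l2, encoding a mitochondrial folate enzyme, had 301, 383 and 274 counts in the WT libraries (LT-HSC, ST-HSC, MPP, the order kept throughout), where background would give 168, 171 and 136, and 0 in all ING4-/- libraries. With the average background taken off, WT averaged 16.8 CPM. If that average holds for Aldh1l2, ING4-/- was at least 175-fold lower, taking 3 counts per library as the floor. Cth, encoding the cystathionine gamma-lyase that makes cysteine, had 92, 170 and 71 counts in WT against a background of 62.5, 63.5 and 50.5. On the same terms it was at least 57.7-fold lower in ING4-/-. That bound rests mostly on the ST-HSC library, since WT less background was 3.10, 11.5 and 2.01 CPM. Pmaip1, encoding the cell death protein NOXA, had 20, 44 and 47 counts in WT, below its background of 59.3, 60.2 and 47.9, and 0 in ING4-/-, so that no fold can be given. Creb3l4, encoding a membrane-bound factor related to ATF6, had 11, 42 and 53 WT counts against a background of 37.6, 38.2 and 30.4, and no fold is given for it either. Creb3l3, of the same family, had 102, 51 and 60 WT counts against a background of 67.6, 68.6 and 54.6 and 0, 0 and 1 in ING4-/-. The counts of Pmaip1, Creb3l4 and Creb3l3 therefore include WT libraries at or under the background. The bounds for Aldh1l2 and Cth cover counting error only, and not the error of applying an average background to a single gene. Over all genes tested the median log2 fold change was -6.85, so much lower values in ING4-/- were common.

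Ddit4, an ATF4 target that was chosen after its values were seen, had 77, 45 and 31 counts in WT and 39, 62 and 67 in the deeper ING4-/- libraries (log2 fold change -1.62, SE 0.571, adjusted p = 0.0388, edgeR). Chac1, another known target of ATF4, had 0 counts in all 6 libraries.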
